A study of Mus musculus with 9 samples.

Results

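Aminoacyl-tRNA synthetases join each amino acid to its own transfer RNA, the step that gives the ribosome its substrates. The list examined here holds the cytosolic synthetases, the mitochondrial synthetases encoded by separate nuclear genes, and the scaffold proteins Aimp1 and Aimp2. Probe sets were taken where the platform annotation gave a single symbol that is on the list, or that symbol with 1 added. Of 38 listed genes 36 were measured, out of 19937 named genes on the array: 18 cytosolic and 16 mitochondrial synthetases and 2 scaffold proteins. The alanine enzyme Aars had only a probe set shared with Exosc6, and the aspartate enzyme Dars had no probe set with its symbol, so neither is described. Iars had 2 probe sets, and the brighter one stands for the gene.

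The cells were RN2, a mouse acute myeloid leukaemia line that carries MLL-AF9 and NrasG12D. Brg1, encoded by Smarca4, is an ATPase of the SWI/SNF chromatin remodelling complexes, and was knocked down with 3 hairpins in the vector TRMPV. Brg1sh_3232, Brg1sh_3364 and Brg1sh_4935 had 2 arrays each, and the control hairpin Rluc, against Renilla luciferase, had 3. All 9 arrays came from cells given 1 ug/ml doxycycline for 96 h, the controls included. The control arrays also carry the term TtTMPV in their cell line name, which the knockdown arrays do not, so this term and the knockdown cannot be told apart. One cell line was used, and nothing says that arrays of a group came from separate cultures, so the p-values measure the spread between arrays, which may be technical. Over all genes, the largest rise with Brg1sh_3364 was that of Eif2s3y, a Y-linked gene. Its log2 difference was 4.37 from Rluc and 3.07 from Brg1sh_3232. Whether the cells of the groups differed in more than the hairpin was not tested, and such a difference cannot be told apart from the hairpin.

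In mammals the cytosolic enzymes form a fuller set than the mitochondrial ones. Gars and Kars each supply both compartments, and Eprs charges glutamate and proline tRNAs in a single protein. Several cytosolic synthetases sit in the multisynthetase complex, held together by the scaffold proteins Aimp1, Aimp2 and Eef1e1. Mitochondrial enzymes charge the tRNAs encoded by mitochondrial DNA, which read the respiratory chain messages made there. The integrated stress response, through the transcription factor Atf4, is known to raise many cytosolic synthetase genes together with Asns, which makes asparagine.

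All levels are log2 values made with RMA (robust multi-array average), and all differences are log2 differences, hairpin minus Rluc, with the standard error of the limma fit. A gene is said to have risen or fallen where limma's p-value, adjusted by Benjamini-Hochberg over all 19937 genes, was below 0.05. Gene-level correlations between arrays were 0.998 to 0.999 within a group, 0.996 to 0.998 between hairpins and 0.991 to 0.995 between a hairpin and Rluc. Smarca4 stood at 10.67 and 10.90 with Brg1sh_3232, 10.78 and 10.81 with Brg1sh_3364 and 10.70 and 10.76 with Brg1sh_4935, against 11.79, 11.77 and 11.79 with Rluc. Its mean with the hairpins was 49.5% of that with Rluc (log2 -1.01 ± 0.05, limma adjusted p = 2.22e-06). Over all genes 15% fell and 13.3% rose for the mean of the hairpins. Of 12 leukaemia and myeloid progenitor markers, 6 fell and 3 rose. Mpo, a granule enzyme of myeloid cells, averaged 12.93 with the hairpins and 13.81 with Rluc (log2 -0.87 ± 0.05), and Cd34, a progenitor surface protein, 13.61 with the hairpins and 13.27 with Rluc (0.35 ± 0.05). Kit averaged 11.82 with the hairpins and 11.80 with Rluc, while Flt3 was dim on both sides, at 6.65 and 6.60. Of 11 measured macrophage markers 8 rose and 0 fell, and the median level of that list on each array was 10.95 and 11.08, 10.59 and 10.56, and 11.32 and 11.26 with the hairpins in the order above, against 9.96, 9.84 and 10.08 with Rluc. Csf1r, a growth factor receptor of macrophages, averaged 11.86 with the hairpins and 10.80 with Rluc. The lymphoid and erythroid markers averaged at most 7.27 in either group. Of 6 fibroblast markers 1, Pdgfrb, rose for the mean of the hairpins (log2 0.39) and 0 fell. Its difference was 0.84 with Brg1sh_3232 and 0.41 with Brg1sh_4935, and 0 fibroblast markers rose with Brg1sh_3364. These shifts in progenitor and macrophage markers ran alongside the knockdown comparisons below, and their part in the synthetase values was not tested. In bulk RNA, fewer cells of a type and less RNA per cell cannot be told apart.

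Most synthetase genes were lower after Brg1 knockdown, by a small amount. Averaging the hairpins, 25 of 36 members fell and 0 rose, where 15% of all genes fell and 13.3% rose. At an unadjusted limma p below 0.05, 1 member, Fars2, was higher. All members were among the 9969 genes at or above the median level. When those genes were fitted alone, 2999 of them fell and 2548 rose, a larger share than over all genes. The median difference over the members was -0.23, or 85.2% of the Rluc level, beside a median of -0.00 over all genes. No member reached a reduction to 50% of Rluc, and 3 members differed by more than 0.5 on the log2 scale: Tars, Yars2 and Nars2. Of the 25 members that fell, 14 passed the test in each of the 23 alternative fits tried, 9 of them cytosolic, 4 mitochondrial and 1 a scaffold protein. In 20 members the 6 knockdown arrays all lay below the 3 Rluc arrays, a pattern that 12.1% of all genes showed. The reverse pattern held for 1 member, Fars2, and for 10.7% of all genes.

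**Figure D1:**
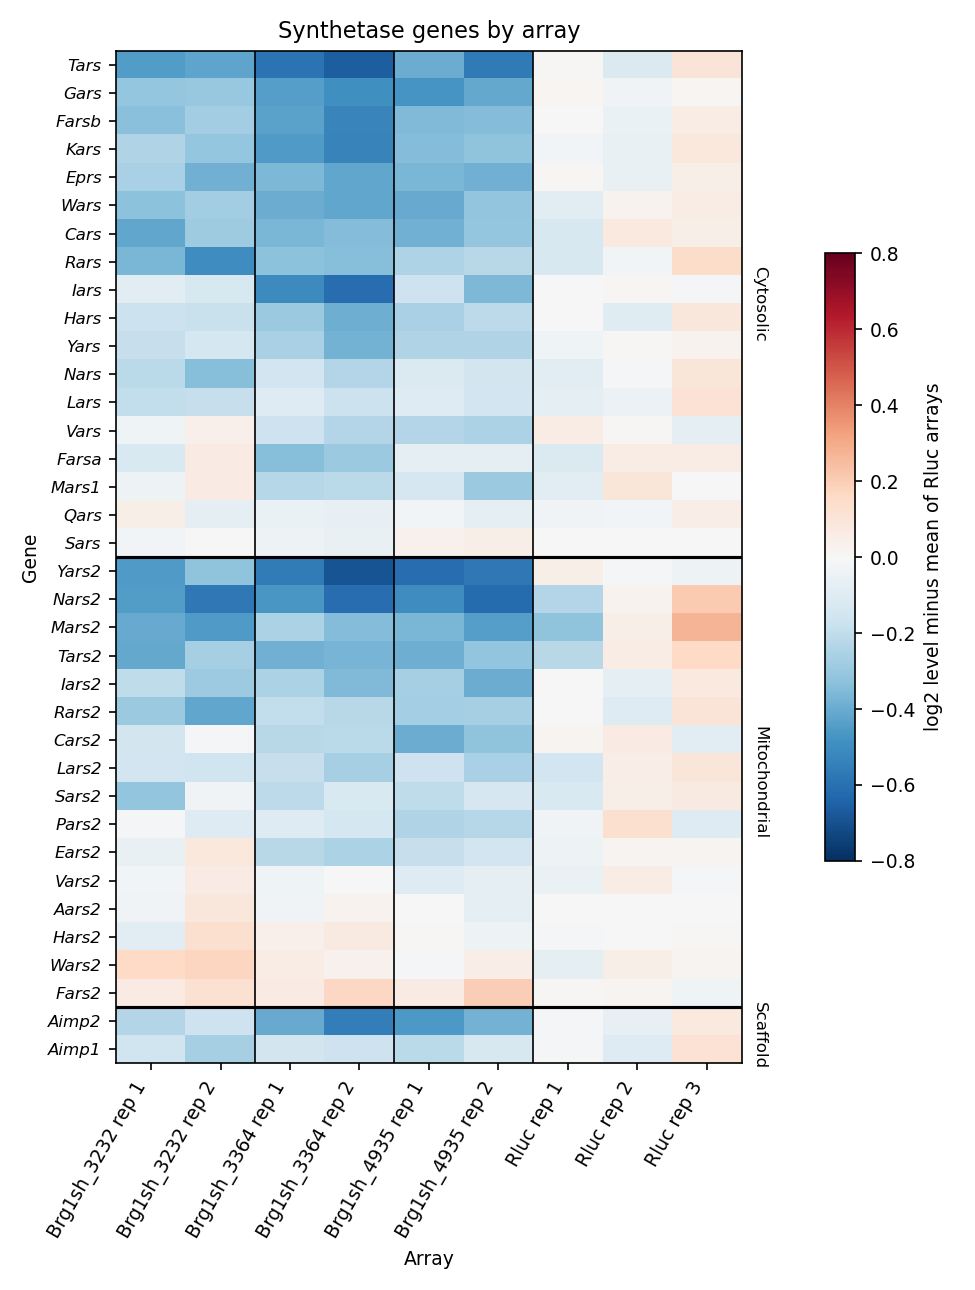
Level of each measured synthetase gene on each of the 9 arrays, as log2 minus the mean of the 3 Rluc arrays, with cytosolic, mitochondrial and scaffold genes in separate blocks sorted by their mean difference. Blue fills most of the cytosolic block on the 6 knockdown arrays, while the lower rows of the mitochondrial block are pale or slightly red.

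Among the cytosolic enzymes 14 of 18 fell and 0 rose, where 15% of all genes fell and 13.3% rose. Their median difference was -0.28. The fold was modest throughout: the largest difference was that of Tars, at 70.1% of Rluc, and the smallest that of Sars, at -0.01. On each array the median of the 18 genes, set against their mean with Rluc, was -0.21 and -0.23 with Brg1sh_3232, -0.33 and -0.36 with Brg1sh_3364 and -0.24 and -0.28 with Brg1sh_4935, against -0.03, -0.01 and 0.05 with Rluc. Each knockdown array therefore lay below each control array for the list as a whole. The Brg1sh_3364 arrays were the lowest of the 6.

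Gars charges glycine tRNA in both the cytosol and mitochondria, and had the smallest p of all members. Its level was 11.54 and 11.55 with Brg1sh_3232, 11.41 and 11.36 with Brg1sh_3364 and 11.38 and 11.44 with Brg1sh_4935, against 11.87, 11.83 and 11.87 with Rluc. The groups did not overlap, and the control arrays were closely bunched. The mean was 11.45 ± 0.08 over the 6 knockdown arrays and 11.85 ± 0.02 over the 3 Rluc arrays (SD), a difference of -0.40 ± 0.03 with a limma adjusted p of 3.51e-05.

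Tars, the threonine enzyme, had the widest difference among the cytosolic genes. Its level was 9.96 and 9.98 with Brg1sh_3232, 9.81 and 9.75 with Brg1sh_3364 and 10.00 and 9.84 with Brg1sh_4935, against 10.42, 10.29 and 10.51 with Rluc. Every knockdown array was below every control array, and the Brg1sh_3364 arrays were the lowest. It fell by 0.51 ± 0.06 (limma adjusted p = 0.000166).

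Farsb encodes the beta subunit of the phenylalanine enzyme. It stood at 10.86 and 10.92 with Brg1sh_3232, 10.77 and 10.67 with Brg1sh_3364 and 10.84 and 10.85 with Brg1sh_4935, against 11.20, 11.15 and 11.26 with Rluc. The groups were clearly apart, and the gene fell by 0.38 ± 0.04 (limma adjusted p = 0.000136). Its partner Farsa, the alpha subunit, did not pass the test for the mean of the hairpins (-0.14 ± 0.06, limma adjusted p = 0.0991), and with Brg1sh_3364 it fell by 0.32 (limma adjusted p = 0.0105). The difference between the subunits was not tested.

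Kars, the lysine enzyme and a member of the multisynthetase complex, read 10.71 and 10.65 with Brg1sh_3232, 10.50 and 10.42 with Brg1sh_3364 and 10.61 and 10.63 with Brg1sh_4935, against 10.93, 10.90 and 11.04 with Rluc. It was lowest with Brg1sh_3364 and did not overlap the controls with any hairpin. Its mean was 77.4% of Rluc (-0.37 ± 0.04, limma adjusted p = 0.000232).

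Eprs, the glutamate and proline enzyme, gave 11.60 and 11.48 with Brg1sh_3232, 11.50 and 11.44 with Brg1sh_3364 and 11.49 and 11.47 with Brg1sh_4935, against 11.87, 11.80 and 11.91 with Rluc. The hairpins lay close to one another and below the controls (-0.36 ± 0.04, limma adjusted p = 0.000239). Wars, the tryptophan enzyme, was similar, at 11.32 and 11.37, 11.25 and 11.23, and 11.24 and 11.33 with Brg1sh_3232, Brg1sh_3364 and Brg1sh_4935 in that order, against 11.56, 11.67 and 11.70 with Rluc. It fell by 0.35 ± 0.04 (limma adjusted p = 0.000306), again without overlap.

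**Figure D2:**
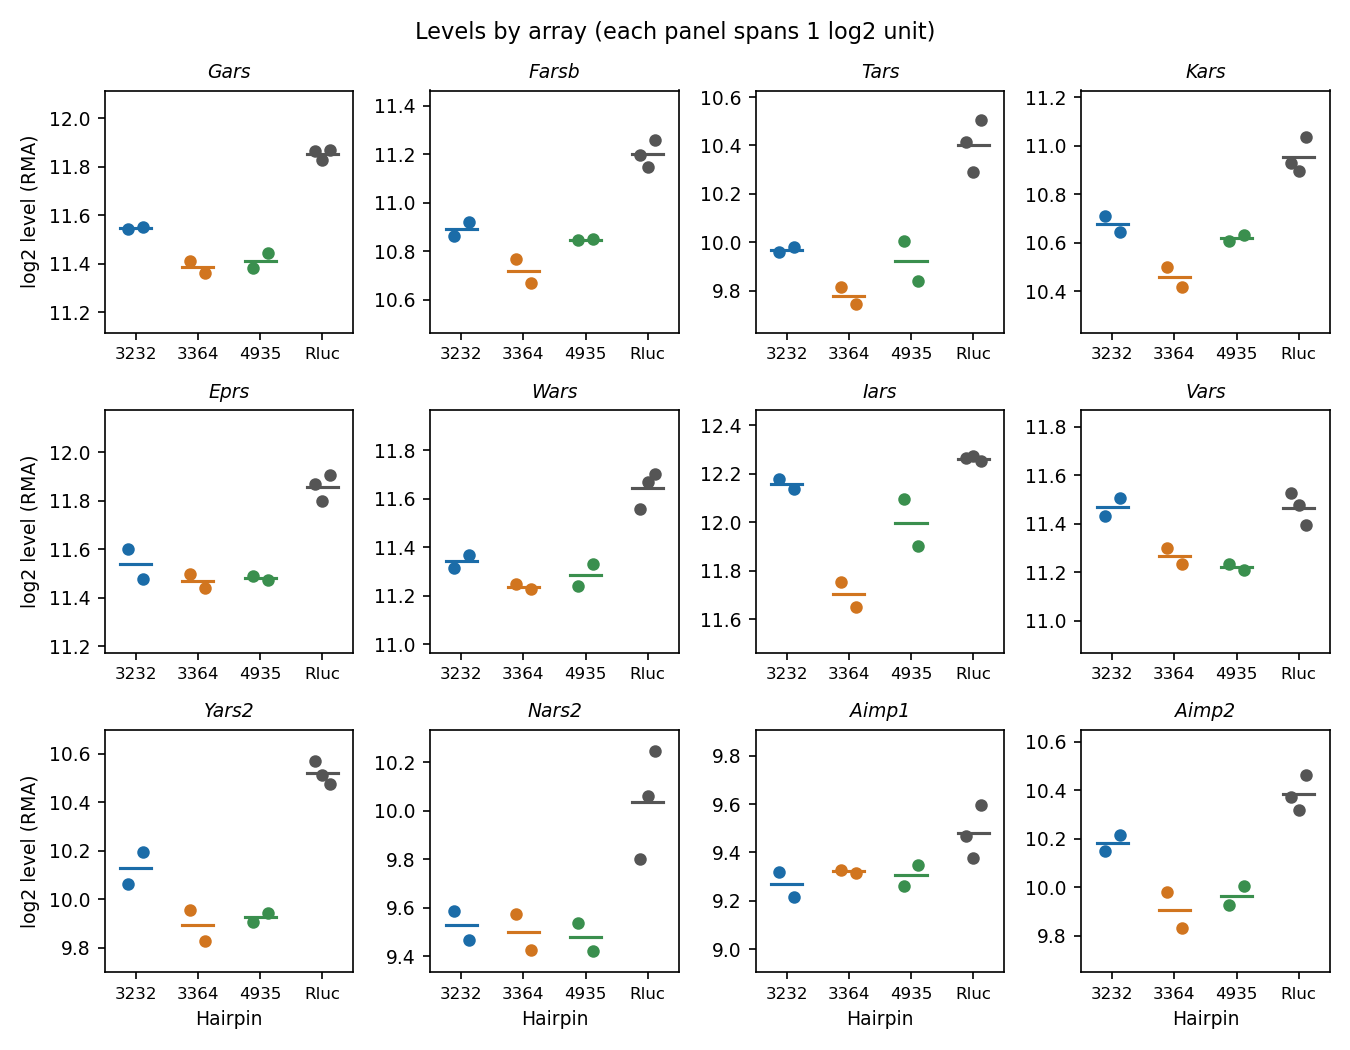
log2 level of 12 members on every array, with 1 point per array, a line at each group mean, and panels that each span 1 log2 unit. The knockdown points lie below the Rluc points in every panel except that of Vars, where the Brg1sh_3232 points fall among the controls.

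The other cytosolic genes that fell were Cars, Rars, Iars, Hars, Yars, Nars, Lars and Vars. Their differences ran between -0.35 for Cars, the cysteine enzyme, and -0.15 for Vars, the valine enzyme. Rars, the arginine enzyme of the complex, had a difference of -0.33 ± 0.06 (limma adjusted p = 0.00268), and Yars, the tyrosine enzyme, -0.24 ± 0.04 (limma adjusted p = 0.00138). The calls for Lars and Vars were marginal (limma adjusted p = 0.0438 and 0.0262), and leaving out any of several arrays undid them. That for Lars was lost on leaving out any array except Rluc replicate 1. That for Vars was lost without Brg1sh_3232 replicate 1, Brg1sh_3364 replicate 2, either Brg1sh_4935 array, Rluc replicate 1 or Rluc replicate 2. Nars, the asparagine enzyme, fell by 0.20 ± 0.05 (limma adjusted p = 0.0159). It kept its call in 18 of 23 alternatives, and among those that lost it was the fit without Rluc replicate 3 (limma adjusted p = 0.0669).

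Besides Farsa, the cytosolic genes that did not pass the test were Mars1, Qars and Sars. Qars, the glutamine enzyme, ranged between 12.06 and 12.18 with the hairpins and between 12.10 and 12.19 with Rluc. Sars, the serine enzyme, ranged between 12.17 and 12.28 with the hairpins, against 12.23 to 12.24 with Rluc, so its knockdown arrays lay on both sides of the controls. Both genes were among the brighter members, and their differences were -0.04 ± 0.04 and -0.01 ± 0.03. Mars1, the methionine enzyme, had a difference of -0.14 ± 0.05 (limma adjusted p = 0.0896).

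Grouping the cytosolic enzymes by fold or by complex gave the following counts, beside 15% of all genes that fell. Class I enzymes, which build on a Rossmann fold, had 8 of 10 members lower with a median of -0.27. Eprs was counted only there, though its part that charges proline tRNA is of class II. Class II enzymes had 6 of 8 measured members lower with a median of -0.31. The multisynthetase complex was counted here without Eef1e1, which is described with the other charging factors. Of its 9 other measured members 7 fell with a median of -0.31, and those not called were Mars1 and Qars. No difference between these groupings was tested.

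The mitochondrial enzymes were divided. Of 16 genes 9 fell and 0 rose, where 15% of all genes fell and 13.3% rose. Their median was -0.18, and their differences spread more widely than the cytosolic ones, between -0.54 for Yars2 and 0.11 for Fars2. The list median on each array was -0.15 and -0.06 with Brg1sh_3232, -0.20 and -0.22 with Brg1sh_3364 and -0.22 and -0.24 with Brg1sh_4935, against -0.03, 0.04 and 0.02 with Rluc. Every knockdown array was again below every control, with the second Brg1sh_3232 array nearest to them. In 5 genes the 6 knockdown arrays were all below Rluc, in 1 they were all above, and in 10 the groups overlapped. Over all genes 12.1% lay wholly below and 10.7% wholly above.

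Yars2, the mitochondrial tyrosine enzyme, had the widest difference of all members. It read 10.06 and 10.20 with Brg1sh_3232, 9.96 and 9.83 with Brg1sh_3364 and 9.91 and 9.95 with Brg1sh_4935, against 10.57, 10.51 and 10.48 with Rluc. The controls were close together and well above all knockdown arrays. The mean was 9.98 ± 0.13 over the knockdown arrays and 10.52 ± 0.05 over the Rluc arrays (SD), so that the hairpins averaged 69.0% of Rluc (-0.54 ± 0.05, limma adjusted p = 4.22e-05).

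Nars2, the mitochondrial asparagine enzyme, had nearly the same difference with more spread. Its level was 9.59 and 9.47 with Brg1sh_3232, 9.57 and 9.43 with Brg1sh_3364 and 9.54 and 9.42 with Brg1sh_4935, against 9.80, 10.06 and 10.25 with Rluc. The knockdown arrays were tight and the controls were not, and the groups did not overlap. It fell by 0.53 ± 0.09 (limma adjusted p = 0.00181).

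Iars2, the mitochondrial isoleucine enzyme, stood at 10.72 and 10.63 with Brg1sh_3232, 10.67 and 10.57 with Brg1sh_3364 and 10.66 and 10.52 with Brg1sh_4935, against 10.92, 10.85 and 11.00 with Rluc. The hairpins shared 1 range, below the controls, and the gene fell by 0.29 ± 0.05 (limma adjusted p = 0.00235). Rars2, the mitochondrial arginine enzyme, gave 10.41 and 10.29 with Brg1sh_3232, 10.51 and 10.48 with Brg1sh_3364 and 10.44 and 10.44 with Brg1sh_4935, against 10.71, 10.61 and 10.81 with Rluc. Here Brg1sh_3232 was the lowest, unlike in most cytosolic genes, and all knockdown arrays were below the controls (-0.28 ± 0.05, limma adjusted p = 0.00277).

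Tars2, Mars2, Cars2, Lars2 and Ears2 also fell. Tars2, the mitochondrial threonine enzyme, ranged between 10.43 and 10.57 with the hairpins, against 10.62, 10.90 and 11.00 with Rluc, and fell by 0.36 ± 0.08 (limma adjusted p = 0.00753). Mars2, the methionine enzyme, had controls as far apart as 9.16, 9.53 and 9.76, and its difference of -0.38 ± 0.11 (limma adjusted p = 0.0273) lost its call on leaving out any array except Rluc replicate 1. Ears2, the glutamate enzyme, lost its call on leaving out any array except Brg1sh_3232 replicate 2, and Lars2, the leucine enzyme, on leaving out any array except Brg1sh_4935 replicate 1 and Rluc replicate 1, with a limma adjusted p of 0.127 without Rluc replicate 2. These 3 calls are therefore at the edge of what 9 arrays can show.

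The mitochondrial genes that did not pass the test were Aars2, Fars2, Hars2, Pars2, Sars2, Vars2 and Wars2. Fars2, the phenylalanine enzyme, read 9.05 and 9.10 with Brg1sh_3232, 9.04 and 9.15 with Brg1sh_3364 and 9.05 and 9.17 with Brg1sh_4935, against 8.99, 9.0 and 8.95 with Rluc. All knockdown arrays were above all controls by a little, with a difference of 0.11 ± 0.04 (limma adjusted p = 0.0855). Aars2, the alanine enzyme, had a difference of -0.00 ± 0.04, and Hars2 and Vars2, for histidine and valine, 0.02 ± 0.05 and -0.03 ± 0.04. Hars2 lies next to the cytosolic gene Hars in the mouse genome, and Hars fell by 0.25 ± 0.05 (limma adjusted p = 0.00355). A test of the difference between these neighbours was not made.

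Where the same amino acid is served by a cytosolic and a mitochondrial gene, 16 pairings could be formed, counting Eprs with both Ears2 and Pars2, and Fars2 with both Farsa and Farsb. Both genes fell in 8 pairings, the cytosolic gene alone in 5, the mitochondrial gene alone in 1, and neither in 2. The cytosolic difference was the more negative in 11 pairings and the mitochondrial one in 5, those for leucine, methionine, asparagine, serine and tyrosine. For tryptophan, Wars had a difference of -0.35 and Wars2 of 0.08. For tyrosine the order was turned, with -0.24 for Yars and -0.54 for Yars2. The pairings are descriptions, since no test of the difference within a pair was made.

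**Figure D3:**
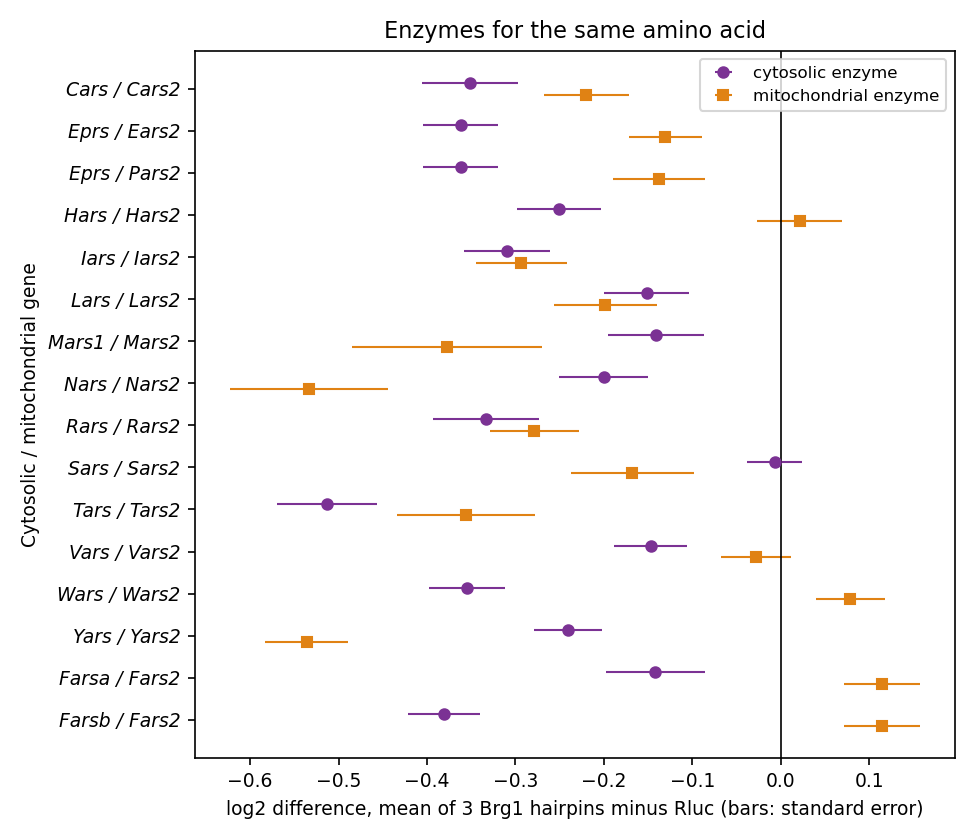
Mean log2 difference of the 3 Brg1 hairpins from Rluc for the cytosolic gene (circle) and the mitochondrial gene (square) of each amino acid, with the standard error of the limma fit. Circles lie left of squares in 11 of 16 pairings, and the widest gaps the other way are those of Nars2 and Yars2.

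Both scaffold proteins fell. Aimp2, which holds the multisynthetase complex together, was at 10.15 and 10.22 with Brg1sh_3232, 9.98 and 9.83 with Brg1sh_3364 and 9.93 and 10.01 with Brg1sh_4935, against 10.37, 10.32 and 10.47 with Rluc. It was lower with Brg1sh_3364 and Brg1sh_4935 than with Brg1sh_3232, without overlap with the controls, and its mean was 77.6% of Rluc (-0.37 ± 0.05, limma adjusted p = 0.000575). Aimp1 was at 9.32 and 9.22 with Brg1sh_3232, 9.33 and 9.32 with Brg1sh_3364 and 9.26 and 9.35 with Brg1sh_4935, against 9.47, 9.38 and 9.59 with Rluc. The gap between the highest knockdown array and the lowest control was narrow, and the gene fell by 0.18 ± 0.05 (limma adjusted p = 0.0311). That call was lost in 14 of 23 alternatives, among them leaving out Brg1sh_3232 replicate 2, either Brg1sh_3364 array, Brg1sh_4935 replicate 1, Rluc replicate 1 or Rluc replicate 3.

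Each hairpin was also set against Rluc on its own, and the number of members that fell differed by hairpin. With Brg1sh_3232, 10 cytosolic and 5 mitochondrial genes fell, where 11.3% of all genes did, and the medians were -0.23 and -0.12. With Brg1sh_3364, 14 cytosolic and 7 mitochondrial genes fell, where 12.2% of all genes did, and the medians were -0.34 and -0.22. With Brg1sh_4935, 11 cytosolic and 7 mitochondrial genes fell, where 12.3% of all genes did, and the medians were -0.24 and -0.22. Of the 9969 genes at or above the median level, fitted alone, 2438, 2375 and 2631 fell with the hairpins in that order. These comparisons share the Rluc arrays. One array can move some of these counts. Without Brg1sh_3232 replicate 2, that hairpin had 6 cytosolic and 1 mitochondrial genes lower, where 6.71% of all genes were lower in that fit. Without its replicate 1 or without Rluc replicate 3 it had 3 mitochondrial genes lower, where 7.43% and 9.5% of all genes were. For Brg1sh_3364 the mitochondrial count was 4 without its replicate 1 (8.29% of all genes) and 1 without its replicate 2 (7.59%). For Brg1sh_4935 the counts were 7 cytosolic and 4 mitochondrial genes without its replicate 1 (7.18% of all genes), and 7 and 2 without its replicate 2 (6.75%). A count of 1 of 16 mitochondrial genes does not exceed the share over all genes.

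Wars2, the mitochondrial tryptophan enzyme, was the 1 member that rose with any hairpin. It read 9.44 and 9.45 with Brg1sh_3232, against 9.21, 9.32 and 9.30 with Rluc, a difference of 0.17 (limma adjusted p = 0.0424) where 9.59% of all genes rose. The corresponding shares of all genes were 13.6% with Brg1sh_3364 and 9.79% with Brg1sh_4935, where 0 members rose. At an unadjusted limma p below 0.05, 0 members were higher with Brg1sh_3364 and 1, Fars2, with Brg1sh_4935. The Wars2 call with Brg1sh_3232 was lost in 14 of 18 alternatives, including the omission of any single array except Rluc replicate 2. With Brg1sh_3364 and Brg1sh_4935 its differences were 0.05 and 0.02.

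Lower with each of the 3 hairpins were 13 members, 8 cytosolic and 5 mitochondrial, where 6.14% of all genes were. The cytosolic genes were Gars, Farsb, Tars, Kars, Eprs, Wars, Cars and Yars, and the mitochondrial ones Yars2, Nars2, Iars2, Rars2 and Tars2. The other members varied by hairpin, and 11 passed with none, beside 64.4% of all genes.

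**Figure D4:**
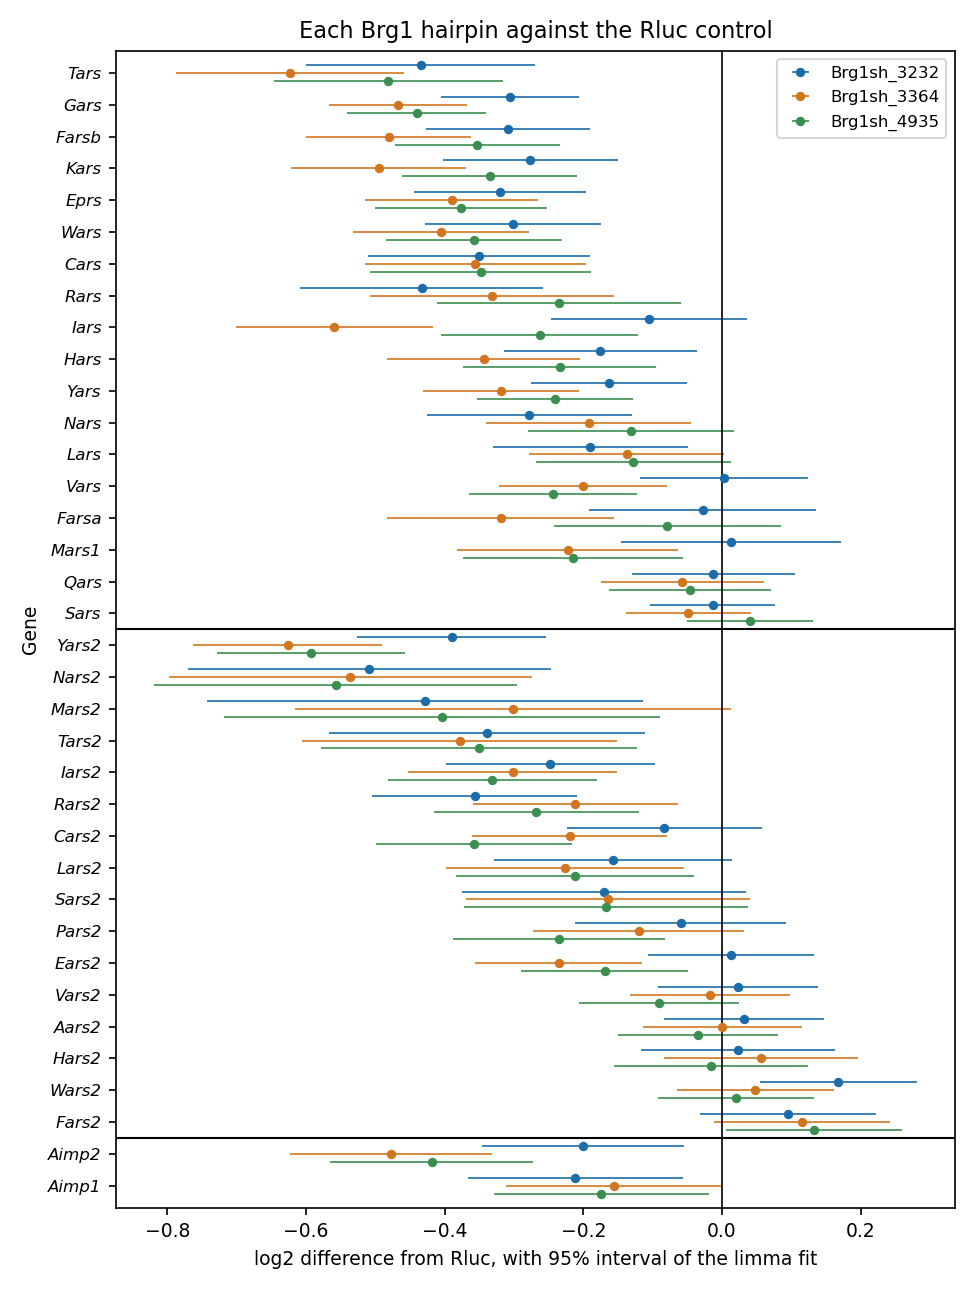
log2 difference from Rluc for each Brg1 hairpin and each measured member, with the 95% interval of the limma fit. The intervals of Tars, Gars and Yars2 lie left of 0 for all hairpins, whereas those of Iars and Vars cross 0 with Brg1sh_3232.

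For differences among the hairpins themselves, limma's F test over the 3 hairpin groups called 2 of 36 members, Iars and Vars. That is a smaller share than the 10.5% of all genes that passed. Iars, the isoleucine enzyme of the multisynthetase complex, gave 12.18 and 12.14 with Brg1sh_3232, 11.75 and 11.65 with Brg1sh_3364 and 12.10 and 11.90 with Brg1sh_4935, against 12.26, 12.27 and 12.25 with Rluc. All knockdown arrays were below the tight controls, and the Brg1sh_3364 arrays were well below the rest. The F test had a limma adjusted p of 0.00899, and 0.0766 without Brg1sh_3364 replicate 2. Against Rluc, Iars had a difference of -0.11 with Brg1sh_3232 (limma adjusted p = 0.311), -0.56 with Brg1sh_3364 (0.000232) and -0.26 with Brg1sh_4935 (0.015).

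Setting hairpin against hairpin, Iars was lower with Brg1sh_3364 than with Brg1sh_3232 by 0.45 ± 0.07 (difference -0.45, 95% interval -0.61 to -0.30, limma adjusted p = 0.00456), where 3.84% of all genes were. It was higher with Brg1sh_4935 than with Brg1sh_3364 by 0.30 (interval 0.14 to 0.45, limma adjusted p = 0.033), where 3.1% of all genes were. The second probe set of Iars read 12.09 and 12.02 with Brg1sh_3232, 11.79 and 11.67 with Brg1sh_3364 and 11.94 and 11.90 with Brg1sh_4935, against 12.18, 12.24 and 12.22 with Rluc. It kept the same order of hairpins, with differences from Rluc of -0.16, -0.48 and -0.29. When every probe set was tested, however, its F test did not pass (limma adjusted p = 0.0649). In that fit the brighter probe set had a limma adjusted p of 0.0425.

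Vars gave 11.43 and 11.51 with Brg1sh_3232, 11.30 and 11.23 with Brg1sh_3364 and 11.24 and 11.21 with Brg1sh_4935, against 11.53, 11.48 and 11.40 with Rluc. The Brg1sh_3232 arrays lay within the range of the controls, and the other hairpins lay below it. Its F test had a limma adjusted p of 0.0499, just inside the threshold, and it was lost on leaving out any hairpin array or Rluc replicate 2, with the highest adjusted p, 0.205, without Brg1sh_3232 replicate 2. Ears2 had the next smallest p, with 8.49 and 8.63 with Brg1sh_3232, 8.32 and 8.29 with Brg1sh_3364 and 8.36 and 8.39 with Brg1sh_4935, against 8.50, 8.56 and 8.56 with Rluc. It too overlapped the controls with Brg1sh_3232 only, and its F test had a limma adjusted p of 0.0529. Between single hairpins, Ears2 and Aimp2 were also lower with Brg1sh_3364 than with Brg1sh_3232 (limma adjusted p = 0.0295 and 0.0419).

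RefSeq promoter windows of build GRCm38.p6, reaching from 250 bases before to 50 bases after a gene's start, were matched by gene identifier for 27 of 36 members: 11 cytosolic, 14 mitochondrial and 2 scaffold genes. They were searched on both strands for 3 motifs: CACGTG, the E-box bound by Myc and related factors, TGATGNAA, a core of the amino acid response element bound by Atf4 with its partners, and CCGGAAG, an ETS core. The E-box was found in 3 cytosolic windows (27.3%), those of Farsb, Iars and Tars, in 1 mitochondrial window (7.14%), that of Ears2, and in 9.52% of 15562 genes with a window. TGATGNAA was found in 4 cytosolic windows (36.4%), those of Gars, Tars, Iars and Yars, in 0 mitochondrial windows, and in 3.62% of all genes. CCGGAAG was found in 5 cytosolic windows (45.5%), those of Farsa, Gars, Kars, Mars1 and Sars. It was also in 4 mitochondrial ones (28.6%), those of Cars2, Mars2, Rars2 and Sars2, in both scaffold genes and in 13.6% of all genes. Of these carriers, Farsa, Mars1, Sars and Sars2 did not pass the test for the mean of the hairpins. A match describes letters only, and where a window held more than 1 motif (Gars, Tars and Iars) the matches did not overlap.

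Of these windows, 6 stretches of 150 bases before the start are printed to show the motifs in genes that fell, read 5′ to 3′ on the strand of the gene with the motif in capitals, from RefSeq on GRCm38.p6. Gars holds an ETS core and, near the start, the amino acid response element core, both in reverse orientation. Tars holds the response element core in reverse, and Farsb and Iars the E-box. Aimp2 and Cars2 hold the ETS core in reverse.
Gars, chr6:55037851-55038000, plus strand: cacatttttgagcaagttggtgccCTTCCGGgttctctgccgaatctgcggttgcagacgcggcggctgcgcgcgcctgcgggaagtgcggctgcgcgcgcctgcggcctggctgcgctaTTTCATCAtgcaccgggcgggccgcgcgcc
Tars, chr15:11399659-11399808, minus strand: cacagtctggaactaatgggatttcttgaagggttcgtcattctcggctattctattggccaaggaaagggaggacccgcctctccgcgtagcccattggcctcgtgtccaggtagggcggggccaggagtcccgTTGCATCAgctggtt
Farsb, chr1:78488898-78489047, minus strand: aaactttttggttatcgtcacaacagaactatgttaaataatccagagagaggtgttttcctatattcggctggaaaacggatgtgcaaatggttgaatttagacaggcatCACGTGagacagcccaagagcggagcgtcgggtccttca
Iars, chr13:49681980-49682129, plus strand: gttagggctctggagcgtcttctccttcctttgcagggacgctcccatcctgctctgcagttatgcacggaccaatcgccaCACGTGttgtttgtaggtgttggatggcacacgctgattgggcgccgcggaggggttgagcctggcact
Aimp2, chr5:143909840-143909989, minus strand: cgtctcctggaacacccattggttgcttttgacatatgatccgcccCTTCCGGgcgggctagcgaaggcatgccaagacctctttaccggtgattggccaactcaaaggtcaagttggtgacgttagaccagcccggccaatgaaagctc
Cars2, chr8:11550772-11550921, minus strand: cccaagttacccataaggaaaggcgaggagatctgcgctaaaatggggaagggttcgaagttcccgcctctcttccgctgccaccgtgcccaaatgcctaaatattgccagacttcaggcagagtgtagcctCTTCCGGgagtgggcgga

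The genes around the synthetases in the tRNA pathway were set beside 15% of all genes that fell and 13.3% that rose in the same comparison. Of the 9969 genes at or above the median level, fitted alone, 2999 fell and 2548 rose. Among other charging factors, 8 of 13 measured genes fell and 0 rose (median -0.29). Eef1e1, the further scaffold protein of the multisynthetase complex, fell by 0.69 ± 0.09 to 61.9% of Rluc (limma adjusted p = 0.000365). Tarsl2, a second threonine enzyme, fell by 0.61 ± 0.04 (limma adjusted p = 1.15e-05), and Aarsd1, which edits mischarged alanine tRNA, by 0.37 ± 0.05 (limma adjusted p = 0.000729).

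Among genes of tRNA modification, 39 of 65 measured fell and 2 rose (median -0.21). Dus4l and Dus2, which make dihydrouridine, fell by 0.95 ± 0.07 (limma adjusted p = 1.26e-05) and 0.62 ± 0.04 (6.07e-06), and Mettl1, which methylates guanosine, by 0.78 ± 0.08 (0.000118). The genes that rose were Ctu1 and Tyw1. In tRNA processing and export, 15 of 24 measured genes fell and 1, Trpt1, rose (median -0.32). Rpp30, a subunit of ribonuclease P, fell by 0.47 ± 0.05 (limma adjusted p = 8.96e-05), Xpot, the tRNA export receptor, by 0.43 ± 0.04 (0.000112), and Xpo5, which exports microRNA precursors and also binds tRNA, by 0.45 ± 0.03 (1.6e-05).

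Amino acid transporters moved both ways, with 9 of 20 lower and 5 higher (median -0.09), beside the same shares of all genes. Slc1a5, a glutamine carrier, fell by 0.38 ± 0.05 (limma adjusted p = 0.000281) and Slc36a4 by 0.67 ± 0.07 (0.000105), whereas Slc6a6, the taurine carrier, rose by 0.46 ± 0.04 (3.33e-05). In the list of stress kinases and the Atf4 axis, 6 of 20 measured genes fell and 2 rose (median -0.01). Over all genes 15% fell and 13.3% rose, and of the 9969 brighter genes 2999 fell and 2548 rose. Atf3, a stress-induced factor, rose by 0.47 ± 0.06 (limma adjusted p = 0.000246), and Nupr1 fell by 0.38 ± 0.05 (0.000333).

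Atf4 itself read 10.41 and 10.37 with Brg1sh_3232, 10.28 and 10.30 with Brg1sh_3364 and 10.26 and 10.22 with Brg1sh_4935, against 10.64, 10.48 and 10.51 with Rluc. It was lower on every knockdown array, and for the mean of the hairpins it fell by 0.24 ± 0.04 (limma adjusted p = 0.00312). By hairpin, Atf4 did not pass the test with Brg1sh_3232 (-0.16, limma adjusted p = 0.0896). It fell with Brg1sh_3364 (-0.25, 0.0100) and Brg1sh_4935 (-0.30, 0.00453). Asns was at 12.98 and 13.05, 12.98 and 12.94, and 13.03 and 13.03 with the hairpins in the same order, against 13.20, 13.28 and 13.24 with Rluc. It also fell by 0.24 ± 0.04 (limma adjusted p = 0.000943), with no overlap. These sizes are within the range of the cytosolic synthetases.

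**Figure D5:**
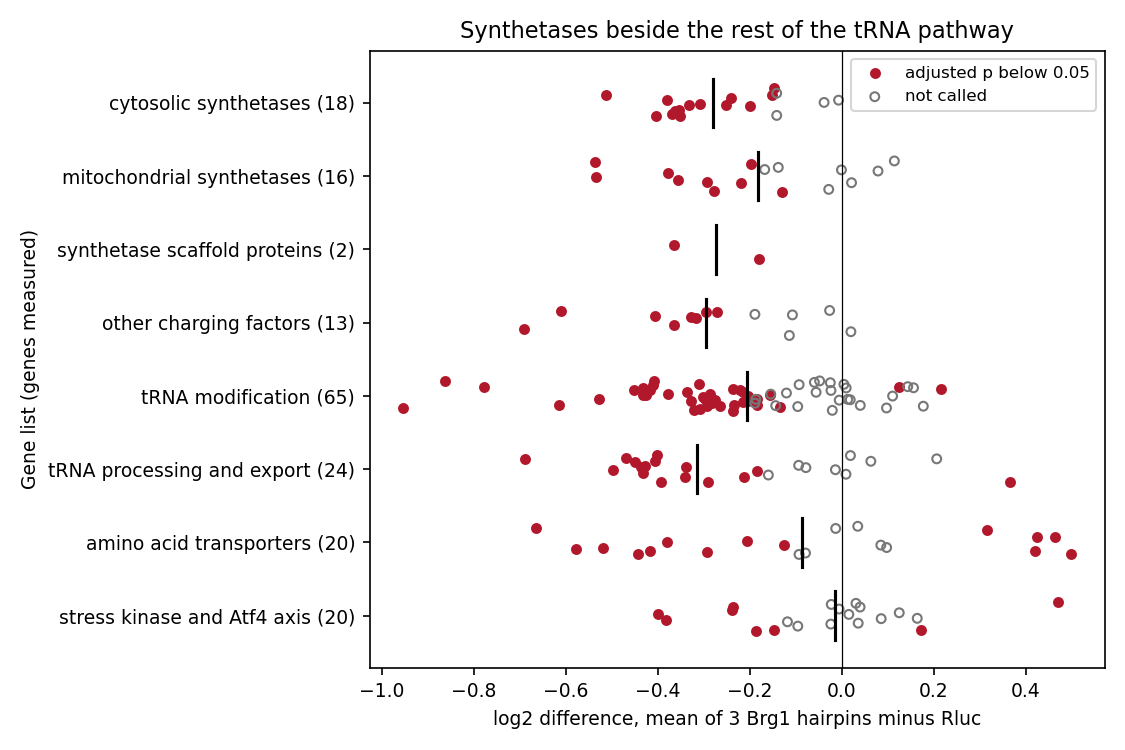
Mean log2 difference of the 3 Brg1 hairpins from Rluc for each measured gene of the synthetase lists and of 5 further lists, with the number of genes in brackets, filled points for limma adjusted p below 0.05 and a bar at each list's median. Medians lie between -0.32 and -0.18 for the tRNA lists and nearer 0 for the transporters and the Atf4 axis.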

How the data were processed

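Each probe set has 1 deposited log2 value on each array. The submitters' processing notes name RMA, while its version and the array's build were not given in the sources used here. RMA equalises the arrays' distributions, which hides a shift shared by most genes, and summarises probes, which tends to compress folds. Scanner files were not used, so background, scan date and detection could not be tested. The number of arrays limits precision.

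Of 34760 probe sets, 21640 had 1 symbol, 1321 several and 11799 none. The probe set with the highest mean over all arrays stood for each of 19937 genes, and no low-level filter was set. limma 3.58.1 in R 4.3.3 fitted the 4 group means on all 9 arrays with lmFit and eBayes (5 residual and 3.85 prior degrees of freedom). Tests are two-sided with Benjamini-Hochberg adjustment over all genes at 0.05, and the calculation was checked on simulated data. Groups came from sample titles.

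The members and gene lists were chosen with earlier results of these data known. Values by array are given for the 6 cytosolic and 4 mitochondrial members with the smallest p, both scaffold proteins, the 3 members with the smallest F test p, Smarca4, Atf4 and Asns, and summary values for the 3 genes of each further list with the smallest p. Fars2, Tars2, Mars2 and Wars2 were singled out after their values were seen. Alternatives changed the normalization, filter, weights, block, samples and hairpin error.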

Additional observations from a re-analysis of the deposited data

Results flagged for a closer look

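Differences among the 3 hairpins passed limma's F test, adjusted over all genes, for 2 of 36 members and for 10 of 142 measured genes of the neighbouring lists (7.04%), beside 10.5% of all genes. Of those 10, values are given for the 5 that were among the 3 genes with the smallest p of their list. The members were Iars, with an adjusted p of 0.00899, and Vars, with 0.0499. Of the other charging factors, Tarsl2 had an adjusted p of 0.00759. It was higher with Brg1sh_3364 than with Brg1sh_3232 by 0.38 ± 0.06 on the log2 scale (limma adjusted p = 0.00498), the opposite order from Iars. Dus2, which makes dihydrouridine, had an F test adjusted p of 0.00533, and Mettl1, the guanosine methyltransferase, 0.0175. Xpo5 had 0.0057 and was lower with Brg1sh_4935 than with Brg1sh_3232 by 0.33 (difference -0.33, limma adjusted p = 0.017). Atf3 had 0.0217.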

How the results depend on the processing

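Of the 25 members that fell for the mean of the hairpins, 14 kept their call in all 23 alternatives: Gars, Farsb, Tars, Kars, Eprs, Wars, Cars, Rars, Yars, Yars2, Nars2, Iars2, Rars2 and Aimp2. Treating hairpins as the unit, which leaves fewer samples, gave 9 cytosolic and 4 mitochondrial genes lower, and lost Iars (adjusted p = 0.126), Hars (0.0535), Tars2 (0.0553) and Atf4 (0.052). Cars2 was lost there (0.132) and without Brg1sh_4935 (0.0856).

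After quantile normalization the cytosolic median was -0.21 for Brg1sh_4935, and the F test called 1 cytosolic and 3 mitochondrial genes. Centring each array gave cytosolic medians of -0.38 (Brg1sh_3364), -0.30 (Brg1sh_4935) and -0.32 (mean of hairpins), mitochondrial ones of -0.26, -0.28 and -0.23, and F calls of 4 and 2. Over all genes centring moved the mean comparison's calls to 2178 higher and 3793 lower, against 2652 and 2983, so 36.5% in place of 47.1% were higher, and for Brg1sh_4935 31.6% in place of 44.3%. Leaving out dim genes gave 3 mitochondrial F calls. Testing every probe set gave 3 mitochondrial genes lower with Brg1sh_3232 and 4 with Brg1sh_3364, where 1906 and 2540 of 34760 probe sets were lower. It gave 1 cytosolic F call. Fitting only 2 groups gave 2 and 4 mitochondrial genes lower with these hairpins. The share of all genes was not taken for that fit, for hairpins as the unit, for fits without a hairpin or for F calls in the alternatives. Array weights gave 1 mitochondrial F call. Without the hairpin Brg1sh_3364 the cytosolic median of the mean was -0.20, and without Brg1sh_4935 5 mitochondrial genes were lower. With Brg1sh_3232 the single higher mitochondrial call, Wars2, went to 0 with centring, every probe set, trended robust variance, array weights, the replicate block, only 2 groups and the omission of any single array except Rluc replicate 2.

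Replicate numbers were not used as pairs in the main fit. Same-number deviations correlated between -0.0721 and 0.249, the highest being those of Brg1sh_3232 with Rluc (0.190 and 0.249). The 2 arrays of a hairpin deviate from their mean by equal and opposite amounts, so these correlations cannot decide whether the numbers pair the samples. With the replicate block the cytosolic medians were -0.19 (Brg1sh_3232), -0.30 (Brg1sh_3364) and -0.24 (mean), the mitochondrial one was -0.17 (Brg1sh_3364), and 1 mitochondrial gene had an F call. Only Rluc has a replicate 3, so the block takes up that array. These medians equal those without Rluc replicate 3 and are not a separate check.

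Leaving out 1 array at a time gave these ranges. The share of all genes lower also changed between these fits, so the counts describe only how the calls move. For Brg1sh_3232, 6 to 10 cytosolic genes were lower (median -0.26 to -0.19), 1 to 6 mitochondrial lower and 0 to 1 higher (-0.15 to -0.063). For Brg1sh_3364 the ranges were 10 to 14 (-0.38 to -0.30) and 1 to 7 (-0.22 to -0.17), for Brg1sh_4935 7 to 12 (-0.28 to -0.24) and 2 to 8 (-0.26 to -0.18), and for the mean 12 to 15 (-0.30 to -0.24) and 6 to 8 (-0.22 to -0.16). F calls were 0 to 3 and 0 to 1. The lowest counts came without Brg1sh_3232 replicate 2 (6 and 1), Brg1sh_3364 replicate 2 (1) and Brg1sh_4935 replicate 2 (7 and 2).

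Signs turned only for differences near 0. With Brg1sh_3232, Ears2 was -0.018 by quantiles and -0.013 centred, and Vars -0.023 centred, -0.00199 with weights and -0.033 with the block. For the mean, Sars was 0.010 by quantiles and 0.014 without Brg1sh_3364, Hars2 -0.021 centred, and without Brg1sh_4935 Aars2 was 0.016 and Vars2 0.0030. Without single arrays, Vars ranged -0.035 to 0.040 and Ears2 -0.058 to 0.084 with Brg1sh_3232, and for the mean Aars2 -0.020 to 0.019, Hars2 -0.014 to 0.056 and Vars2 -0.055 to 0.0021. The cause of these changes was not tested.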
